A study of Rattus norvegicus with 9 samples.

Results

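The glucocorticoid receptor gene Nr3c1, the mineralocorticoid receptor gene Nr3c2 and 4 genes of glucocorticoid response or supply, Fkbp5, Sgk1, Tsc22d3 and Hsd11b1, were followed in the thalamus of young rats that had or had not chewed their food. Every probe set to which the platform annotation gave 1 of these symbols and no other was taken. This gave 8 of the 31042 rat probe sets on the array, standing for 6 of 14217 named genes, and 0 further probe sets carried 1 of the symbols together with others. On the deposited values Nr3c1 was lower in the rats on solid chow than in those on powder on 1 probe set. Its other probe set hardly varied, and the call was lost in most fits with 1 array left out. The response genes Sgk1 and Tsc22d3 were not called different, and the Fkbp5 probe sets hardly varied. Tested against that of Sgk1 or Tsc22d3, the diet difference of Nr3c1 did not pass after adjustment (exact permutation, adjusted p = 0.119 for both).

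Corticosterone, the main glucocorticoid of the rat, binds 2 nuclear receptors in brain cells, the mineralocorticoid receptor at low hormone levels and the glucocorticoid receptor when the hormone rises with the daily rhythm or with stress. Without hormone the glucocorticoid receptor is held in the cytoplasm by HSP90 chaperones and immunophilins. With hormone it moves to the nucleus, binds DNA and induces genes such as Fkbp5, Sgk1 and Tsc22d3, of which Fkbp5 feeds back on the receptor. The enzyme encoded by Hsd11b1 regenerates active corticosterone from its inert 11-keto form inside cells.

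The groups were 4 arrays from male Wistar rats on a solid diet (chow) and 5 from rats on a powdered diet (powder). Rats of both groups were 3 weeks old at the start, ate powder for 2 preparatory days and then their assigned diet for 8 days; their stated age is 5 weeks. The comparison asked whether chewing after weaning changes gene expression in the thalamus. A total of 10 rats is stated and 9 arrays were used here, none tied to a named animal, so each p-value reflects only how much these arrays vary, which may in part be technical. In bulk tissue, fewer cells of a type and less RNA per cell cannot be told apart.

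Values are log2 expression values as deposited, and differences are chow minus powder. Between the highest and lowest of the 9 arrays, 26193 of the rat probe sets (84.4%) spanned less than 0.01 log2 units (median span 0.000475), and the other 4849 had a median span of 0.424. A probe set of the first kind can pass a test while carrying almost no size, so the 4 members of that kind are described apart from the 4 that spanned more. A probe set or gene was called where the limma adjusted p was under 0.05. The signal of the beta-actin control probe sets at the 3' end minus that at the 5' end, a measure that moves with RNA integrity, was 1.44 to 1.58 on the chow arrays and 1.55 to 1.70 on the powder arrays. The array chow 1 stood apart, with a mean correlation with the other arrays of 0.960 over probe sets spanning at least 0.01, against 0.979 to 0.984 for the rest. Among defining genes of thalamic relay neurons, Tcf7l2 averaged 11.8 under chow and 12.1 under powder and the vesicular glutamate transporter gene Slc17a6 11.5 and 11.7. The files used here give no detection limit.

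RefSeq (assembly GRCr8) lists 9 start sites with an upstream sequence for 4 of the 6 genes. Shown here are 250 bases upstream of 1 start of the receptor gene that was called, Nr3c1, and of the response gene Tsc22d3, whose difference was near 0, so that their make-up can be compared. Both are read 5' to 3' on the minus strand, and capitals mark GC boxes (GGGCGG or CCGCCC), the short motif bound by Sp1 family factors.
Nr3c1, chr18:31614220-31614469: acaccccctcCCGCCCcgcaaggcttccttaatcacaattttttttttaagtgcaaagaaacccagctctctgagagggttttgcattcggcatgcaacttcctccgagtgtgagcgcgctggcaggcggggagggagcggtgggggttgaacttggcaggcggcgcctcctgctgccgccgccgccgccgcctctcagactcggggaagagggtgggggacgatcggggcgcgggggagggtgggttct
Tsc22d3, chrX:109066390-109066639: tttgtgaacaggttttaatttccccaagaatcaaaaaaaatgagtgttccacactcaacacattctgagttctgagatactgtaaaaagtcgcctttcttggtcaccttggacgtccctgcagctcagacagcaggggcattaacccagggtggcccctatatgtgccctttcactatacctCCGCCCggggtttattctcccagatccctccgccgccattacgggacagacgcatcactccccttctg

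The Nr3c1 window was 64.0% G or C and the Tsc22d3 window 50.0%, against a median of 51.2% over 33469 windows of the same length. Each held 1 GC box, a motif present in 30.5% of all windows. Each gene also had a richer window: 78.4% G or C for Nr3c1 (chr18:31613440-31613689) and 74.4% for Tsc22d3 (chrX:109065431-109065680), both with 3 GC boxes, counting both strands and overlaps. The hexamer of the glucocorticoid response element, AGAACA or TGTTCT, occurs in 17.5% of all windows and the full element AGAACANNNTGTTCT in 0.012%. Neither was found in any of the 9 member windows, which says only that these letters are not in these stretches.

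Nr3c1, the glucocorticoid receptor, fell under chow on probe set 1368221_at. Its log2 values were 8.90, 8.94, 9.07 and 8.85 on chow arrays 1 to 4, and 9.44, 9.37, 9.57, 9.45 and 8.99 on powder arrays 1 to 5. All chow arrays thus lay below 4 of the 5 powder arrays, and powder 5 lay within the chow range, so the groups overlapped through that array. The chow mean was 8.94 ± 0.092 (SD, n = 4) and the powder mean 9.36 ± 0.222 (SD, n = 5), a difference of -0.43 ± 0.116 (SE, 95% confidence interval -0.70 to -0.15, limma adjusted p = 0.0288), or 1.34-fold more signal under powder. Over all rat probe sets, 34.6% were called in either direction and 16.7% were lower under chow; among those spanning at least 0.01, 38.8% were lower. Among the 4849 probe sets spanning at least 0.01, 168 (3.46%) had a difference of this size or larger in either direction.

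The direction for Nr3c1 was the same in every fit run, while the call was not. With 1 array left out the difference ranged from -0.374 to -0.520, and the adjusted p was 0.00658 without powder 5 and 0.0384 without chow 3. Without any 1 of the other 7 arrays it was 0.0554 to 0.0656, so the call was lost. With the beta-actin 3' minus 5' signal as a covariate the difference was -0.625 ± 0.165 (SE, limma adjusted p = 0.0776). The plot of the Nr3c1 difference by setting shows these values.

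**Figure D1:**
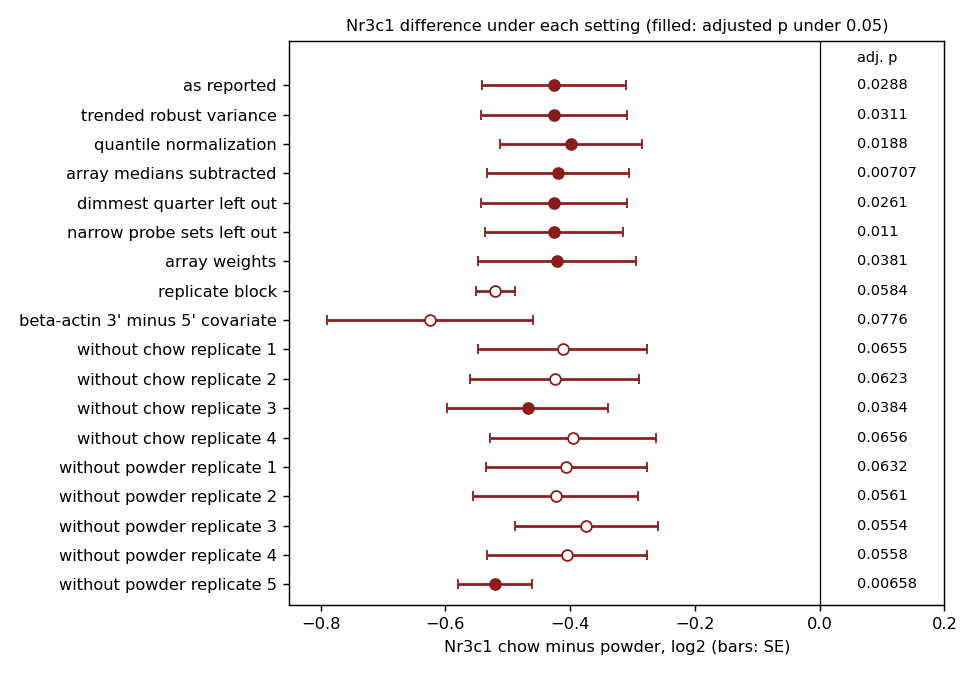
Chow minus powder difference of Nr3c1 (probe set 1368221_at, log2) as reported and under each alternative, with SE as bars and the limma adjusted p at the right. All differences lie below 0, between -0.374 and -0.625, and open points are settings in which the adjusted p was 0.05 or more.

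The second Nr3c1 probe set, 1368222_at, hardly varied. Its 9 values lay between 6.4184 and 6.4187, with a difference of 0.00012 ± 0.000048 (SE, limma adjusted p = 0.087, not called) in the direction opposite to the first. On powder 5, where the first probe set had its lowest powder value, the second had its highest value of all 9 arrays. The 2 probe sets therefore did not report the same pattern, and the lower Nr3c1 signal under chow rests on 1368221_at. Taking the median of both probe sets, the Nr3c1 difference was -0.213 (limma adjusted p = 0.031). As 1368222_at hardly varied, that median only repeats 1368221_at at a smaller size and is no separate evidence.

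Nr3c2, the mineralocorticoid receptor, was measured by 1 probe set whose values did not leave 7.6243 to 7.6251. The difference was -0.0000814 ± 0.000164 (SE, limma adjusted p = 0.712). The chow values were more scattered than the powder values on this very small scale (SD 0.000372 against 0.0000792). No size can be read from a probe set that spans 0.000794 log2 units, so the balance of the 2 receptors could not be compared between the diets.

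**Figure D2:**
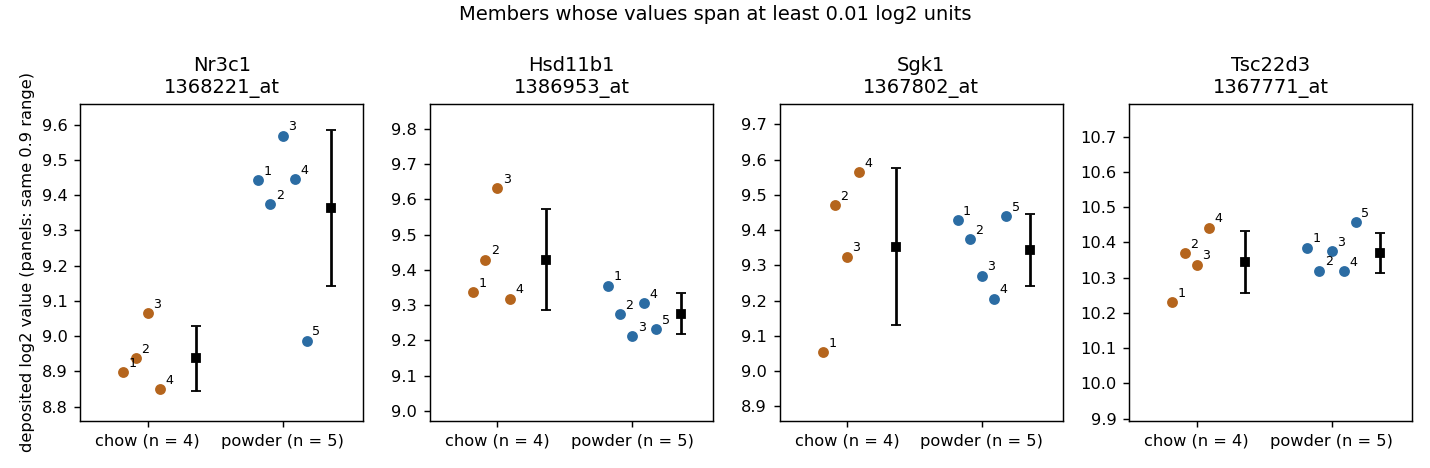
Deposited log2 values of the 4 member probe sets spanning at least 0.01, by diet; each point is 1 array labelled with its number, squares and bars are mean and SD, and every panel covers the same range of 0.9 log2 units. In the Nr3c1 panel 4 powder points lie above all chow points and powder 5 lies among them, whereas the Sgk1 and Tsc22d3 groups overlap widely.

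Hsd11b1, the enzyme that regenerates corticosterone, had values of 9.34, 9.43, 9.63 and 9.32 under chow and 9.36, 9.27, 9.21, 9.31 and 9.23 under powder. The highest 2 values were the chow arrays 3 and 2, and the other 2 chow arrays lay inside the powder range. The difference was 0.15 ± 0.068 (SE, 95% confidence interval -0.0052 to 0.31, limma adjusted p = 0.113), which was not called. The unadjusted two-sided exact permutation test of 4 against 5 arrays gave p = 0.0397, and after quantile normalization or subtraction of array medians the gene was called (limma adjusted p = 0.0434 and 0.0478). Without chow 3 the difference was 0.0849, and with the beta-actin covariate 0.045, both in the same direction and not called. Chow 3, with the highest Hsd11b1 value, also had the lowest 3' minus 5' beta-actin signal (1.44).

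Fkbp5, the immunophilin that lowers the hormone affinity of the receptor and is among its most responsive targets in brain, was measured by 2 probe sets, neither of which spanned more than 0.000963. On 1380611_at all 4 chow values (6.9029 to 6.9031) lay above all 5 powder values (6.9022 to 6.9027), and the probe set was called with a difference of 0.000611 ± 0.000128 (SE, limma adjusted p = 0.0128). Groups did not overlap for 29.9% of all rat probe sets. On 1388901_at the difference was -0.000241 ± 0.000099 (SE, limma adjusted p = 0.0934, not called). The 2 probe sets thus pointed in opposite directions, and differences of this size carry no usable fold.

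**Figure D3:**
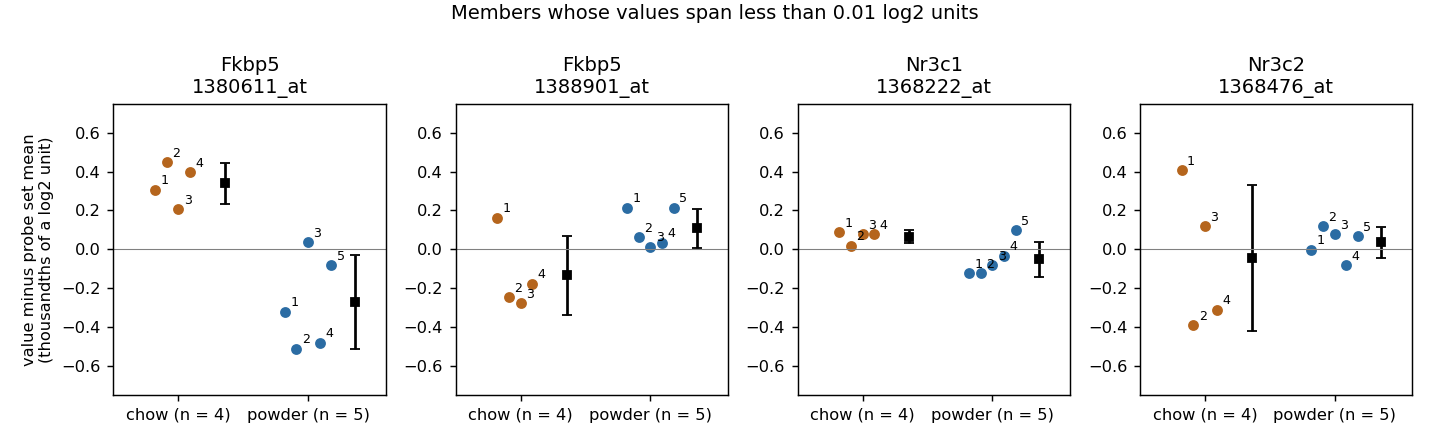
The 4 member probe sets spanning less than 0.01: value minus the probe set's mean over 9 arrays, in thousandths of a log2 unit, by diet, with arrays numbered and mean and SD as squares and bars. Fkbp5 1380611_at is the probe set whose groups do not overlap.

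Sgk1, a kinase that acts on ion channels and transporters and is induced by glucocorticoids, had values of 9.05, 9.47, 9.32 and 9.56 under chow and 9.43, 9.37, 9.27, 9.21 and 9.44 under powder. Chow held both the lowest array (chow 1) and the highest (chow 4), so the powder range lay inside the chow range. The difference was 0.0096 ± 0.108 (SE, limma adjusted p = 0.951), and its 95% confidence interval ran from -0.24 to 0.26. Without chow 1 it was 0.11 and without chow 4 it was -0.0609, neither called.

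Tsc22d3, which encodes the glucocorticoid-induced leucine zipper protein GILZ, had values of 10.23, 10.37, 10.34 and 10.44 under chow and 10.39, 10.32, 10.38, 10.32 and 10.46 under powder. The groups overlapped, and the lowest value was again that of chow 1. The difference was -0.026 ± 0.047 (SE, 95% confidence interval -0.14 to 0.083, limma adjusted p = 0.674). It turned to 0.0117 without chow 1 and to 0.0245 with the beta-actin covariate, with neither called.

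In all, 2 of the 8 member probe sets were called, Nr3c1 1368221_at lower and Fkbp5 1380611_at higher, a share below the 34.6% of all rat probe sets. Of the 4 members spanning at least 0.01, 1 was called, against 54.9% of all such probe sets. On the scale of genes spanning at least 0.01, 49.3% were called and 46.2% had groups that did not overlap, while Nr3c1, Hsd11b1, Sgk1 and Tsc22d3 all had overlapping groups. Quantile normalization gave 4 higher member calls against 1 lower, and subtracting array medians 5 against 1, of which 1 under each was Hsd11b1 and the other higher calls were narrow probe sets, whose span is below the median shift these settings gave all probe sets (0.0061 and 0.0066). Whether the diet differences of 2 members differed from each other was tested on the within-array difference between their probe sets, by two-sided exact permutation over all 6 pairs of members spanning at least 0.01. No pair passed after adjustment. The chow minus powder difference of Hsd11b1 exceeded that of Nr3c1 by 0.578 (exact permutation p = 0.0159, adjusted p = 0.0952), without overlap of the groups. That of Nr3c1 minus that of Tsc22d3 was -0.399 and minus that of Sgk1 -0.435 (exact permutation p = 0.0397 and 0.0794, adjusted p = 0.119 for both). The smallest p the test allows is 0.00794.

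Sgk1 and Tsc22d3 varied together from array to array rather than by diet. Over the 9 arrays Pearson's r was 0.85 (exact permutation p = 0.00436, adjusted over 6 pairs of members p = 0.0262) and Spearman's rho 0.767 (exact permutation p = 0.0214, adjusted p = 0.128). The coefficient was 0.876 with the group means removed, and 0.985 within the 4 chow and 0.639 within the 5 powder arrays. It was 0.698 without chow 1 and 0.564 over the 7 arrays left without chow 1 and chow 4, the arrays farthest from the Sgk1 median (exact permutation p = 0.054 and 0.186), so the relation rests in part on those arrays. For the other 5 pairs among Nr3c1, Hsd11b1, Sgk1 and Tsc22d3 the coefficients lay between -0.329 and 0.0291, with exact permutation p from 0.431 to 0.937. Within 1 diet some of these were large as well. Hsd11b1 with Nr3c1 was at 0.987 within chow and 0.238 within powder. Nr3c1 was at -0.614 with Sgk1 and -0.696 with Tsc22d3 within powder, and at -0.17 and -0.202 within chow. A large coefficient within 4 or 5 arrays was thus not particular to Sgk1 and Tsc22d3. Leaving out chow 1 moved the Nr3c1 coefficient with Sgk1 from -0.217 to -0.742 and that with Tsc22d3 from -0.0996 to -0.546, given here without a test.

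**Figure D4:**
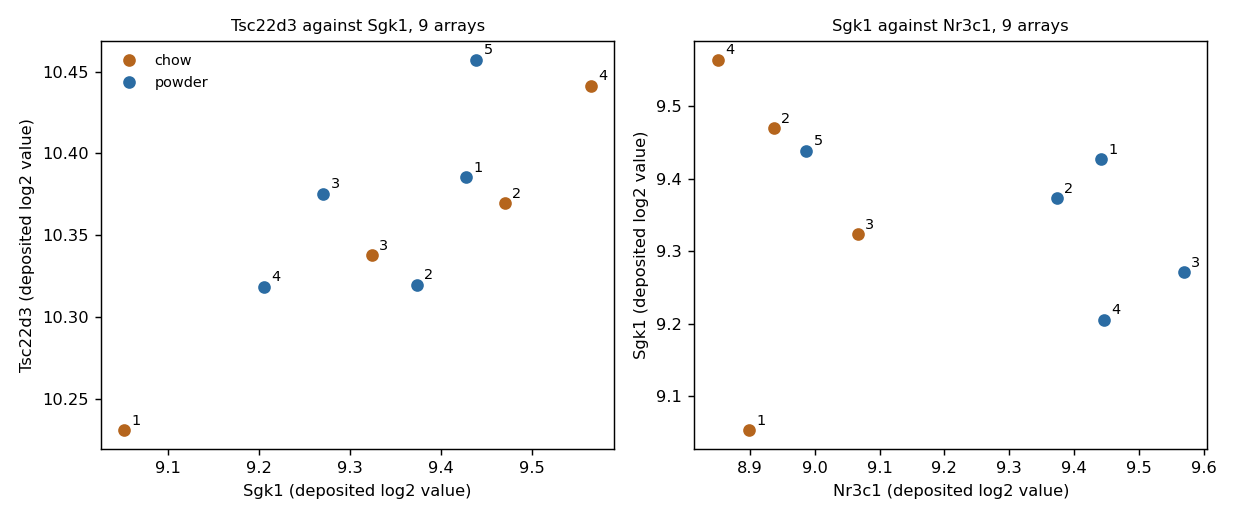
Deposited log2 values of Tsc22d3 against Sgk1 (left) and of Sgk1 against Nr3c1 (right), 1 point per array, coloured by diet and numbered. On the left the points rise from chow 1 to chow 4 and powder 5 with the diets mixed (r = 0.85); on the right 4 powder arrays lie to the right and r is -0.217 over all arrays and -0.742 without chow 1.

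Other glucocorticoid response genes were set against Sgk1 and Tsc22d3 in the same way. Of 34 listed, 33 were measured and 18 spanned at least 0.01, and all 16 besides Sgk1 and Tsc22d3 correlated positively with both, against 54.4% of the 2412 other genes spanning at least 0.01. The lowest coefficients were 0.13 with Sgk1 (Bcl6) and 0.02 with Tsc22d3 (Lcn2). The median r with Sgk1 was 0.60 for the response genes and 0.08 for all such genes, and that with Tsc22d3 0.59 and 0.20. Given as a description over the same 9 arrays, with no test, the angiopoietin-like gene Angptl4 had r = 0.814 with Sgk1 and Rhob 0.813. The mTORC1 inhibitor gene Ddit4 had 0.80, the clock gene Per1 0.784, Nfkbia, the inhibitor of NF-kappa-B, 0.78, and the transcription factor gene Klf9 0.754. These genes were picked out after their values were seen. Without chow 1, which held the lowest value for 11 of the 18 response genes and for 42.2% of all genes spanning at least 0.01, 10 of the 16 (62.5%) were positive with both, against 19.2% of all such genes. In that setting Nfkbia had r = 0.824 with Sgk1, Ddit4 0.819, Angptl4 0.667, Rhob 0.63, Per1 0.616 and Klf9 0.432. Dusp1 went from 0.671 to 0.195, Sgk3 from 0.313 to -0.155 and Cdkn1a from 0.385 to -0.411, so for these genes the relation rested on chow 1.

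By diet, few of these response genes were called. Of the 33 measured, 1 was higher and 3 lower under chow, against 14.2% and 18.8% of all genes, and of the 18 spanning at least 0.01, 0 were higher and 2 lower, against 9.03% and 40.2% (limma; at an unadjusted p under 0.05, 2 of the 33 were higher and 6 lower). Their median difference over the 18 was -0.023, against -0.12 over all 2414 such genes. Sgk3, a kinase related to Sgk1, was at -0.092 ± 0.017 (SE, limma adjusted p = 0.00939), with all 4 chow arrays (8.18 to 8.25) below all 5 powder arrays (8.28 to 8.34); with the beta-actin covariate it was at -0.0799 (limma adjusted p = 0.132, not called). Tiparp, a mono-ADP-ribosyltransferase gene, was at -0.014 ± 0.0041 (SE, limma adjusted p = 0.036), and turned to 0.00654 after quantile normalization. The uncalled genes of largest span were Sult1a1, a sulfotransferase (0.17 ± 0.232), the MAP kinase phosphatase Dusp1 (-0.20 ± 0.168) and the lipocalin Lcn2 (0.19 ± 0.169). Cdkn1a, the cell cycle inhibitor p21, had a larger difference than these (-0.34 ± 0.119, SE, limma adjusted p = 0.0631, not called), and was named after its value was seen. A second Dusp1 probe set, spanning 0.516, was at -0.042 ± 0.125 (SE, limma adjusted p = 0.808, not called), so the Dusp1 values given here are those of its brighter probe set. Quantile normalization gave this list 7 higher calls against 2 lower, and subtracting array medians 15 against 2; among the 18, both gave 0 higher and 2 lower.

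Among the receptors and their chaperones, 12 of 14 listed genes were measured, 1 was higher and 2 lower under chow, and 4 spanned at least 0.01. Over all genes 14.2% were higher and 18.8% lower. Hsp90ab1, the chaperone that keeps the receptor ready to bind hormone, rose under chow, with values of 12.06 to 12.15 against 11.83 to 11.94 under powder and no overlap. The difference was 0.22 ± 0.029 (SE, limma adjusted p = 0.00348), and it stayed called with any 1 array left out (adjusted p = 0.00459 to 0.0109) but not with the beta-actin covariate (0.187, adjusted p = 0.0654). The 2 lower genes were Nr3c1 and Ppid, an immunophilin of the cyclophilin family, whose difference of -0.0072 ± 0.0021 (SE, limma adjusted p = 0.037) turned to 0.0104 after quantile normalization. Hspa4, a chaperone of the Hsp110 family, was at -0.039 ± 0.026 (SE, limma adjusted p = 0.281, not called). Quantile normalization gave this list 7 higher calls against 1 lower, and subtracting array medians 9 against 1. Among the 4 genes spanning at least 0.01, each setting gave 1 higher and 1 lower. Over all 31042 rat probe sets these settings called 15610 and 27206 higher.

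Receptor coregulators, the proteins that link the bound receptor to transcription, had 11 of 12 members measured, of which 6 were lower under chow and 0 higher (limma; at an unadjusted p under 0.05, 7 were lower and 2 higher). Over all genes 18.8% were lower and 14.2% higher, and with the beta-actin covariate 1 coregulator was lower and 0 higher. The 3 that spanned at least 0.01 were all among the 6, where 40.2% of all such genes were lower. Ncoa1, the steroid receptor coactivator SRC-1, was at -0.21 ± 0.049 (SE, limma adjusted p = 0.0188), with chow arrays at 9.48 to 9.73 and powder arrays at 9.75 to 9.86. The median of its probe sets differed by -0.000222. With the beta-actin covariate Ncoa1 was at -0.264 ± 0.076 (SE, limma adjusted p = 0.0878, not called), a larger difference with a larger SE. Med1, the Mediator subunit that nuclear receptors contact, was at -0.059 ± 0.0094 (SE, limma adjusted p = 0.00587). It was at 0.000133 when its probe sets were summarised by their median, and at -0.0385 with the beta-actin covariate (limma adjusted p = 0.0975, not called). No other Ncoa1 or Med1 probe set spanned at least 0.01, so both medians carry no usable size. The corepressor Ncor1 was at -0.084 ± 0.024 (SE, limma adjusted p = 0.033). The call was lost without chow 1, chow 2, chow 4, powder 1, powder 2 or powder 4, each left out in turn (limma adjusted p = 0.0626 to 0.0791). It was also lost without powder 3, where the limma adjusted p lay at the threshold of 0.05. A second Ncor1 probe set was at 0.28 ± 0.169 (SE, limma adjusted p = 0.223, not called), and by the median over probe sets Ncor1 was at 0.0446. Crebbp, Nrip1 and Smarca4 were called on narrow probe sets. For the list, quantile normalization gave 7 higher calls against 2 lower, and subtracting array medians 8 against 3. Among the 3 genes spanning at least 0.01, both settings gave 0 higher, with 2 and 3 lower.

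In steroid metabolism and transport, 9 of 10 genes were measured, 2 higher and 1 lower, against 14.2% and 18.8% of all genes. The lower gene was Abcb1a, the efflux pump P-glycoprotein of the blood-brain barrier, which carries some steroids out of the brain. Its values were 7.14 to 7.43 under chow and 7.59 to 7.89 under powder, a difference of -0.44 ± 0.080 (SE, limma adjusted p = 0.00829). With the beta-actin covariate it was -0.315 (limma adjusted p = 0.141, not called), and by the median of its probe sets -0.223. No other Abcb1a probe set spanned at least 0.01, so that median is no separate evidence. The gene also marks endothelial cells. Of the 8 genes on the endothelium and pericyte list, Abcb1a included, 4 were lower and 1 higher, against 18.8% and 14.2% of all genes; Tek (lower) and Pdgfrb (higher) were narrow probe sets, and the pericyte marker Rgs5 was at 0.22 (limma adjusted p = 0.0616, not called). Their summed linear signal was 3027 to 3213 on the chow arrays and 3231 to 3314 on the powder arrays; the part of this in the Abcb1a result was not tested. The 2 higher genes, Hsd11b2 and Cyp11a1, were called on narrow probe sets. Calls in the list were 2 higher against 1 lower by quantile normalization, and 8 against 1 by subtracting array medians.

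Among stress axis peptides and receptors, 8 of 12 genes were measured and 0 were called (limma; at an unadjusted p under 0.05, 5 were higher and 0 lower). All 5 were measured by narrow probe sets. With array medians subtracted 6 were called higher and 0 lower, with 0 calls among the 2 genes spanning at least 0.01. That setting called 27206 of all 31042 rat probe sets higher. Crh, corticotropin-releasing hormone, was at -0.021 ± 0.106 (SE, limma adjusted p = 0.89), and Avp, vasopressin, at 0.21 ± 0.726 (SE, limma adjusted p = 0.838). Avp values ran from 7.39 to 10.37 within the powder group, a spread that covered the whole chow range of 8.06 to 9.67.

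**Figure D5:**
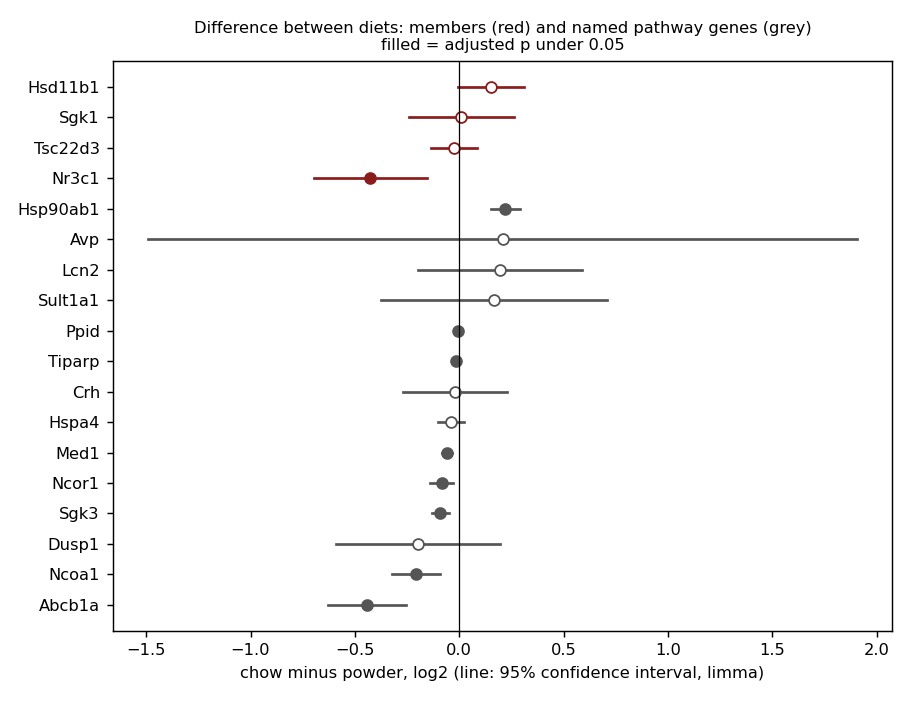
Chow minus powder difference (log2) with its 95% confidence interval for the 4 member genes spanning at least 0.01 (red) and 14 named genes of the pathway lists (grey); filled points had a limma adjusted p under 0.05. Nr3c1 and Abcb1a have the largest called differences, -0.43 and -0.44, and Hsp90ab1 is the called gene to the right of 0.

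Over the 5 lists together, 72 of 81 genes were measured and 22.2% were called, 4 higher and 12 lower, against 32.9% of all genes. Of the 29 that spanned at least 0.01, 8 were lower (27.6%) and 1 higher. Among all genes spanning at least 0.01, 40.2% were lower and 9.03% higher. Quantile normalization gave 22 higher calls against 6 lower, subtracting array medians 45 against 7, and the beta-actin covariate 1 against 1. Most higher calls under both rescalings were on narrow probe sets. The calls numbered 9 without chow 4, 10 without powder 1 and 9 without powder 2.

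By its pattern over the 9 arrays, Nr3c1 1368221_at was most like Cracd, a regulator of capping proteins (r = 0.954, Spearman's rho 0.950), the RNA helicase gene Ddx3x (0.954 and 0.983) and the lipid kinase gene Pikfyve (0.942 and 0.90), among 2413 genes spanning at least 0.01. The genes most unlike it were the endophilin gene Sh3gl3 (r = -0.965), Glg1 (-0.937) and the cytokine gene Csf1 (-0.937). These coefficients describe 9 arrays that share the diet difference, and they carry no test. With the group means removed they were 0.903, 0.883 and 0.885 for the like and -0.903, -0.823 and -0.812 for the unlike genes. Powder 5 was the lowest powder array for each of the 3 like genes, as it was for Nr3c1. As these genes were picked by their coefficients over the same 9 arrays, that likeness is no separate evidence. The differences of the like genes were -0.26 for Cracd, -0.13 for Ddx3x and -0.23 for Pikfyve.

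Markers of cell types were read beside the Nr3c1 result. The summed linear signal of the thalamic relay neuron list, of which 9 of 10 genes were measured, was 13400 to 19770 on the chow arrays and 18230 to 20040 on the powder arrays, with 0 of the 9 called (limma; Tcf7l2 alone had an unadjusted p under 0.05, with a difference of -0.26), 8 of the 9 below 0 and a median difference of -0.19. Of the reticular nucleus and inhibitory neuron list, 5 of 6 were above 0 (median 0.22), Gad2 by 0.60 with no overlap of the groups (limma adjusted p = 0.0537), and the sums were 3801 to 5918 and 3669 to 4588. Of the genes spanning at least 0.01, 4 of 4 on the striatum list (median 0.37) and 4 of 5 on the hypothalamus list (median 0.21) were above 0, with 0 called on any of these 3 lists (limma; at an unadjusted p under 0.05, Gad2 and the hypothalamic Hcrt were higher). Their sums overlapped between the diets. That of the striatum list was 1128 to 3047 under chow and 1151 to 1315 under powder, so it was far more uneven between the chow arrays. That of the hypothalamus list was 2362 to 5085 and 1352 to 5205. That of the oligodendrocyte list was 35200 to 37370 and 35920 to 38820, and that of the astrocyte list 11080 to 12200 and 11760 to 12480. The hippocampus and cortex list did not overlap, at 1495 to 1743 under chow and 1761 to 1872 under powder, and Prox1, which is also present in thalamus, was at -0.35. The other members spanning at least 0.01, Slc17a7 and Wfs1, were at 0.09 and 0.09, and Neurod2 and Tbr1 were called higher on narrow probe sets, so Prox1 alone carried the lower sum. The part of cell type content in the Nr3c1 difference was not tested.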

How the data were processed

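Thalamus RNA of 9 rat samples was measured on single-colour arrays; per the labels' protocols, biotin-labelled cRNA was made from 100 ng of total RNA. In the deposited table each of 31099 probe sets has a log2 value on every array. The log2 scale was read from the range, 5.37 to 14.0; how the authors summarised, normalized or centred the arrays is not given in the sources used here. Array medians over rat probe sets were 7.3907 to 7.3964 (chow) and 7.3978 to 7.4019 (powder), and no further normalization was applied. The number of arrays limits the precision.

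After 57 control probe sets were left out, chow was compared with powder by limma 3.58.1 in R 4.3.3 (lmFit, eBayes, no covariates), with Benjamini-Hochberg adjustment over all 31042 rat probe sets, or over 14217 genes for the pathway lists, the highest-mean single-symbol probe set standing for its gene. Probe sets were named from the platform annotation (20826 with 1 symbol, 436 with several, 9780 with none); 14204 gene symbols are in RefSeq's GRCr8 table. Named were the 6 members, list genes that were called and spanned at least 0.01, up to 3 uncalled genes per list of largest span, and the 3 genes most and least like Nr3c1. The members, lists and alternatives were chosen with earlier results of these data known. The fit was tested on simulated data.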

Additional observations from a re-analysis of the deposited data

Results flagged for a closer look

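Within a diet group, the gap between the most extreme array and its nearest neighbour was compared with the group's range by Dixon's test at the 95% level; chance alone gives such a gap in about 1 of 20 groups, and 44 groups were tested. It was passed in 4. For Hsp90ab1 chow 1 lay at 12.146 against 12.059 to 12.073 on the other chow arrays (ratio 0.836). For Lcn2 chow 2 lay at 7.539 against 6.734 to 6.848 (0.858). For Med1 powder 4 lay at 8.578 against 8.609 to 8.616 (0.818). For the narrow Nr3c1 probe set 1368222_at chow 2 lay at 6.41858 against 6.41864 to 6.41865 (0.845). The low powder 5 value of Nr3c1 1368221_at did not reach the critical value.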

How the results depend on the processing

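The limits are few arrays, a single informative Nr3c1 probe set and values of which most hardly vary. Against 10753 called rat probe sets as reported, 17464 were called after quantile normalization (15610 higher, 1854 lower), 29347 with array medians subtracted (27206 and 2141), 2884 of the 4849 spanning at least 0.01 tested alone, 19 with the replicate block and 1429 with the beta-actin covariate; with 1 array left out there were 7567 to 9578. Against 2 member probe sets called, there were 5, 6, 1, 0 and 0 under the same settings, 4 at an adjusted p under 0.1 and 1 to 3 with 1 array left out. Against 16 pathway genes there were 28, 52, 8, 0 and 2, 27 at an adjusted p under 0.1 and 9 to 14 with 1 array left out. A trended robust variance, array weights and leaving out the dimmest 25% kept these counts within 1.5 times.

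The replicate number as a block, with powder 5 dropped for want of a partner, gave Nr3c1 -0.52 (limma adjusted p = 0.0584). Same-numbered arrays deviated with correlations of -0.31, 0.19, -0.34 and -0.16, and 0 of 4 chow arrays matched their own number best. These few correlations showed no pairing by number and are too few to exclude one.

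Directions turned as follows, the cause not tested except that both rescalings shift narrow probe sets by more than their span. After quantile normalization and median subtraction, Fkbp5 1388901_at was at 0.00725 and 0.00633 and Nr3c2 at 0.00805 and 0.00649. After quantile normalization Ppid was at 0.0104 and Tiparp at 0.00654. With the beta-actin covariate Tsc22d3 was at 0.0245 and Avp at -0.998. By the median over probe sets Ncor1 was at 0.0446 and Med1 at 0.000133. No other Med1 probe set spanned at least 0.01, so its median carries no usable size or direction. With 1 array left out, Sgk1 ranged from -0.0609 to 0.11, Tsc22d3 from -0.0586 to 0.0117, Nr3c2 from -0.000231 to 0.0000335, Avp from -0.116 to 0.629 and Crh from -0.0851 to 0.0336, none called.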

Other observations

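The 2 Nr3c1 probe sets ran against each other over the 9 arrays (Pearson's r = -0.86, exact permutation p = 0.00889; Spearman's rho = -0.63, exact permutation p = 0.076). The coefficient was -0.919 over the 7 arrays left without powder 3 and powder 4, the arrays farthest from the median of 1368221_at, -0.80 within powder and -0.03 within chow. Over all genes with both a probe set spanning at least 0.01 and one spanning less, 2535 such pairs had a median r of 0.12, 45.7% were below 0, and 51 pairs (2.01%) were as negative as the Nr3c1 pair or more so. Narrow probe sets of a gene therefore followed its wider ones only weakly in this table.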
